A study of Mus musculus with 12 samples.

Results

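The unfolded protein response and the Atf4 branch of the stress response were followed through 10 genes: Hspa5, Dnajb9, Herpud1, Xbp1, Atf4, Ddit3, Atf3, Trib3, Chac1 and Asns. They were picked by gene symbol and are 10 of the 10269 genes kept in the fit. On the array they have 21 probe sets, and each gene is represented by its brightest probe set in mean log2 signal. All 10 reached a signal of 100 on all 12 arrays, so none passed the filter on dim genes through 1 group alone.

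RNA came from endothelial cells of newborn wild-type mice, grown in culture and hybridised 1 sample to an Affymetrix array. In the tmTNF group (n = 4) the cells were stably transfected with a transmembrane murine TNF that cannot be cleaved from the membrane, a chronic exposure. In the soluble TNF group (n = 4) the cells received TNF at 20 ng/ml for 4 h, an acute exposure. The control group (n = 4) was mock-transfected. All groups share the wild-type genotype and the culture medium. The labels give neither the promoter of the transgene nor whether the transfected cells are 1 clone, and they do not say that replicates came from separate cultures or animals. The p-values therefore reflect only how these samples scatter, possibly for technical reasons, and replicate numbers, given in order of deposit, pair no samples. The study asks where the 2 exposures act alike and where they differ.

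Proteins that enter the endoplasmic reticulum (ER) fold there with the help of chaperones, and an overload of unfolded protein is sensed by Ern1, Eif2ak3 and Atf6. Ern1 splices the Xbp1 mRNA, Atf6 is cut to release a transcription factor, and Eif2ak3 phosphorylates the translation factor eIF2alpha. The last step slows protein synthesis while it favours translation of Atf4, and the kinases Eif2ak4, Eif2ak2 and Eif2ak1 reach the same step from amino acid shortage, double-stranded RNA and haem shortage. These probe sets measure mRNA abundance, so neither Xbp1 splicing nor Atf4 translation was seen.

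The promoters of all 10 genes were found in the RefSeq promoter table (GRCm38.p6, 250 bases before to 50 after each start). They show which members carry the short elements that Atf6, Xbp1 and Atf4 are known to bind, and the stretches below are a choice of those with a match, leaving out that of Trib3, which lies past the start, and matches to CCACG alone. Each is written 5′ to 3′ on the strand of the gene, with the letters that the motif fixes in capitals. The Hspa5 stretch (plus strand, bases -177 to -27 from the start) holds the ER stress response element, which is CCAAT, then any 9 bases, then CCACG, and further upstream the unfolded protein response element TGACGTG. The other stretches hold the C/EBP-ATF response element, TGATGNAA, or its reverse complement TTNCATCA, which Atf4 binds with C/EBP partners. They run from -132 to -85 in Herpud1 (plus strand), from -213 to -166 in Chac1 (plus strand), from -130 to -83 in Atf3 (minus strand) and from -43 to 5 in Asns (minus strand).
Hspa5, chr2:34771913-34772063: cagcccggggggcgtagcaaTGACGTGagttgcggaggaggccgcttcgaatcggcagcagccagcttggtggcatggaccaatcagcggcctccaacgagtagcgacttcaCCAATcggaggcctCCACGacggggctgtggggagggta
Herpud1, chr8:94386297-94386344: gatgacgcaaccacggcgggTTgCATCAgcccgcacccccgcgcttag
Chac1, chr2:119351029-119351076: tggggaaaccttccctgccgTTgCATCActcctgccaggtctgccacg
Atf3, chr1:191183416-191183463: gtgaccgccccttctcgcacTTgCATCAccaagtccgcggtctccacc
Asns, chr6:7693205-7693252: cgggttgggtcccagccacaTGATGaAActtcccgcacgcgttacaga

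Both strands were searched. The full ER stress response element was in 1 of the 10 promoters and in 0.119% of 32851 promoters, and its CCACG part alone was in 6 of 10 against 32.8% of all. The unfolded protein response element was in 1 of 10 (Hspa5) against 2.01% of all. The C/EBP-ATF element was in 5 of 10, Trib3 being the other one, against 3.97% of all. The cAMP response element TGACGTCA, which shares its first letters with the unfolded protein response element, was in 0 of 10 against 1.79% of all. A match describes letters and not binding, and a promoter without one, such as that of Ddit3, lacks only these letters in this window.

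A signal of 100 was reached by 17652 to 19174 probe sets on each array, and the ratio of 3′ to 5′ Actb signal was 1.119 to 1.29 in tmTNF, 1.101 to 1.156 in soluble TNF and 1.185 to 1.291 in control arrays. All 15 endothelial markers reached 100 on at least 4 arrays, with a summed signal of 28540 to 143157 in tmTNF, 38143 to 78775 in soluble TNF and 15798 to 127819 in control arrays. The sum was lowest in control replicate 3, tmTNF replicate 2 and tmTNF replicate 4. Among markers of other cells, 4 of 9 fibroblast, 1 of 4 smooth muscle, 3 of 7 leukocyte and 2 of 7 mesothelial and epithelial genes reached 100 on at least 4 arrays. Ptprc, Itgam, Adgre1, Cd3e, Cnn1, Myh11, Lum, Postn, Thy1, Krt18, Upk3b and Wt1 stayed under 100 throughout. The summed fibroblast signal was 301 to 8465 in tmTNF, 188 to 8180 in soluble TNF and 292 to 10035 in control arrays, and the mesothelial and epithelial sum was 266 to 14223, 498 to 4505 and 507 to 10717 in the same groups. The leukocyte sum was 443 to 7228 in tmTNF, 400 to 573 in soluble TNF and 707 to 18602 in control arrays. The smooth muscle sum was 165 to 294 in tmTNF, 791 to 1762 in soluble TNF and 111 to 1080 in control arrays. The Y-linked genes Eif2s3y and Kdm5d had signals of 496.6 to 1683 and 253.0 to 560.0 in tmTNF, against at most 37.9 and 24.9 on any other array. The cells of the tmTNF group thus carried Y-linked transcripts that the other groups lacked at this level, and this difference cannot be told apart from tmTNF exposure.

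In mean log2 signal, stress genes were mostly highest in tmTNF cells and lowest in soluble TNF cells, but 0 of 10 passed the threshold in any comparison. The order of tmTNF and control depended on the measure. The median signal was higher in control than in tmTNF for Ddit3 (6932 against 4329), Trib3 (3864 against 2832) and Atf3 (1554 against 1260). For the other members it was higher in tmTNF. The mean log2 signal was lowest in soluble TNF for 10 of 10 genes, and it was higher in tmTNF than in control for 9 of 10, the exception being Xbp1. Over all genes, 5468 of 10269 had a value above 0 for tmTNF minus control and 4707 of 10269 for soluble TNF minus control. The members varied together, so their counts are not made of separate observations. The widest differences lay between the 2 exposures, where Trib3 was 7.58-fold, Ddit3 5.65-fold, Chac1 5.1-fold and Herpud1 2.83-fold higher in tmTNF than in soluble TNF cells. These 4 genes and Atf3, 5 of 10, did not overlap between tmTNF and soluble TNF arrays, against 10.3% of all genes in the higher direction. Against control, 0 of 10 were free of overlap. Over all genes that share was 3.17% for tmTNF and 8.11% for soluble TNF. In a bulk sample, fewer cells of a type and less RNA per cell cannot be told apart. The plot of signals by array shows each gene in the 3 groups.

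**Figure D1:**
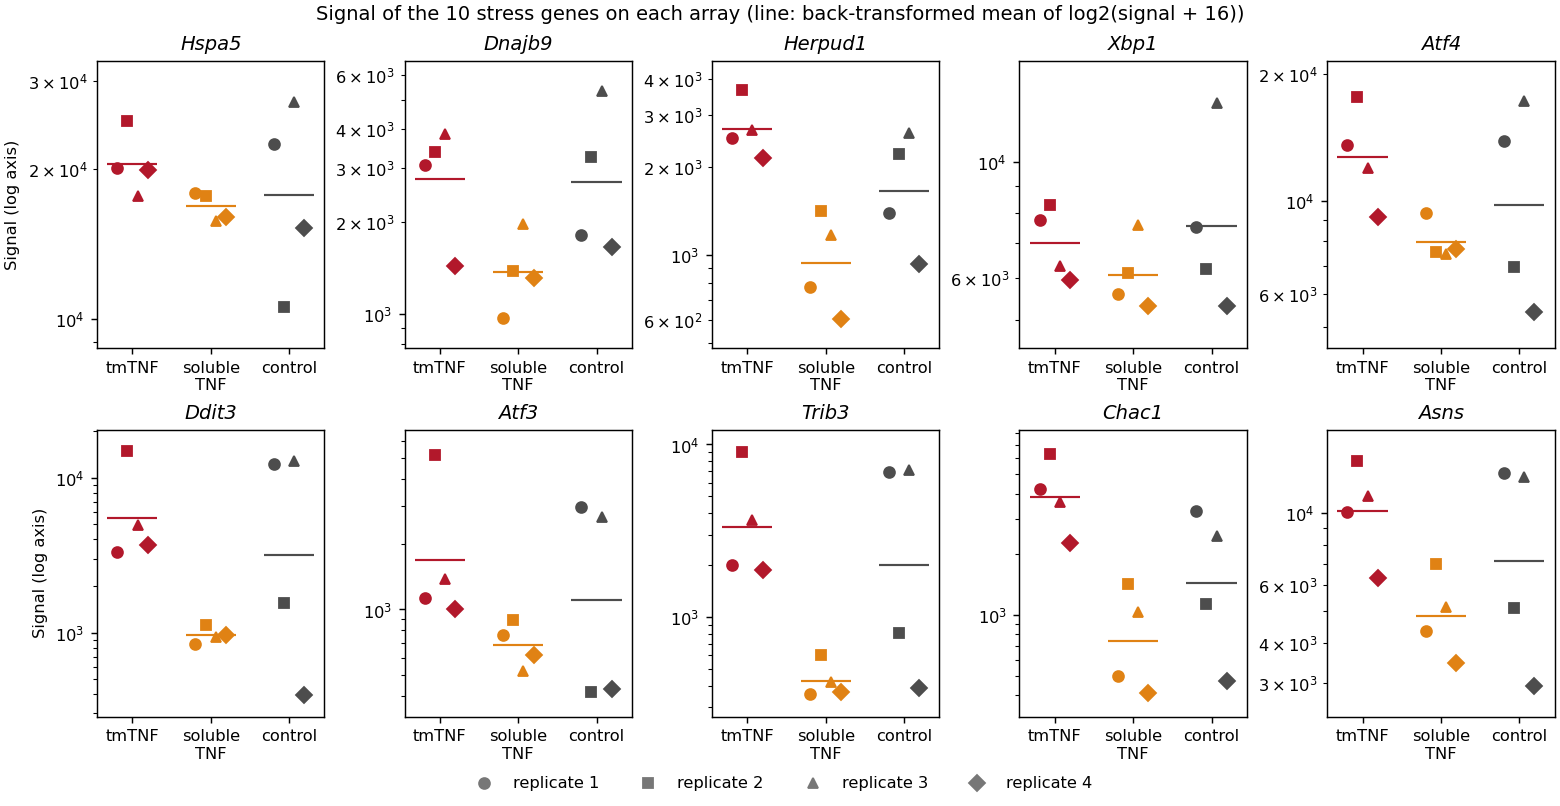
Signal of the 10 stress genes on each of the 12 arrays, on a logarithmic axis, with tmTNF, soluble TNF and control arrays as separate columns of points. For Herpud1, Ddit3, Atf3, Trib3 and Chac1 all 4 tmTNF points lie above all 4 soluble TNF points, while the control points of Ddit3 spread from 394 to 12904.5.

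The first 4 genes act inside or at the ER and are classed with the Atf6 and Xbp1 branches. Hspa5 encodes BiP, the main ER chaperone, which also holds the stress sensors inactive. Its signals were 20056, 24851, 17656 and 19879.9 in tmTNF replicates 1 to 4, 17896, 17669, 15708 and 16044 in soluble TNF replicates 1 to 4, and 22402, 10556, 27219.5 and 15229.7 in control replicates 1 to 4. Hspa5 varied little within the tmTNF and soluble TNF groups and more in control, and the 3 groups overlapped. Its log2 difference was 0.21 ± 0.24 (SE) for tmTNF minus control, -0.07 ± 0.24 for soluble TNF minus control, and between tmTNF and soluble TNF it was 0.28 ± 0.24. The adjusted p in limma was 0.92, 0.922 and 0.539 in that order, so these differences lay within the spread between arrays. Its 2 other probe sets gave 0.10 and -0.15 for tmTNF minus soluble TNF, and the last of them did not track the one used (r = -0.13).

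Dnajb9 encodes an ER co-chaperone of BiP that also holds Ern1 in check. Its signals were 3070.5, 3364, 3859 and 1436 in tmTNF replicates 1 to 4, 971, 1387, 1969.5 and 1314 in soluble TNF replicates 1 to 4, and 1805.5, 3260, 5328 and 1656 in control replicates 1 to 4. Soluble TNF arrays were low, but tmTNF replicate 4 lay inside their range, and control replicate 3 was the brightest of all. Dnajb9 averaged 2933 ± 1049 in tmTNF, 1410.4 ± 414.5 in soluble TNF and 3012.5 ± 1705 in control arrays (signal, SD, n = 4 each). It was 2.0-fold higher in tmTNF than in soluble TNF (log2 1.00 ± 0.41, adjusted p = 0.203 in limma) and its log2 difference for soluble TNF minus control was -0.97 ± 0.41 (adjusted p = 0.368). Between tmTNF and control the log2 difference was 0.03 ± 0.41.

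Herpud1 encodes a membrane protein that helps to send misfolded ER proteins to the proteasome. Its signals were 2504, 3648, 2665 and 2138.5 in tmTNF replicates 1 to 4, 776, 1409.6, 1166.5 and 604 in soluble TNF replicates 1 to 4, and 1394, 2208, 2599.8 and 929 in control replicates 1 to 4. Every tmTNF array exceeded every soluble TNF array, and the control arrays reached into both groups. Herpud1 averaged 2739 ± 645 in tmTNF, 989 ± 366 in soluble TNF and 1782.5 ± 759 in control arrays (signal, SD, n = 4 each). The log2 difference of 1.50 ± 0.35 between tmTNF and soluble TNF had the smallest unadjusted p of the members, 0.00107 in limma, and an adjusted p of 0.0615. An exact permutation test of the same 8 arrays gave a two-sided p of 0.0286, the smallest that 4 against 4 allows. Groups without overlap always give this p, as Ddit3, Atf3, Trib3 and Chac1 also did. It therefore adds nothing to the separation of the arrays. The other Herpud1 probe set gave a log2 difference of 1.72 and tracked the one used with r = 0.97 over the 12 arrays. Against control, Herpud1 stood at 0.70 ± 0.35 in tmTNF (adjusted p = 0.71 in limma) and at -0.81 ± 0.35 in soluble TNF (adjusted p = 0.378).

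Xbp1 encodes the transcription factor whose spliced mRNA drives ER expansion. Its signals were 7741, 8265, 6332 and 5941 in tmTNF replicates 1 to 4, 5600, 6142, 7563 and 5312 in soluble TNF replicates 1 to 4, and 7512, 6235, 12918 and 5321.5 in control replicates 1 to 4. The groups overlapped, with control replicate 3 far above the other arrays. Its log2 difference was -0.10 ± 0.25 for tmTNF minus control, -0.30 ± 0.25 for soluble TNF minus control, and 0.20 ± 0.25 between tmTNF and soluble TNF, none past the threshold (adjusted p of 0.961, 0.629 and 0.689 in limma). Among its 3 other probe sets the log2 difference between the exposures was 0.16, 0.04 and -0.04.

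The other 6 genes belong to the Atf4 branch. Atf4 encodes the factor at its head. Its signals were 13555.5, 17577, 11948 and 9118 in tmTNF replicates 1 to 4, 9343, 7550, 7459 and 7662 in soluble TNF replicates 1 to 4, and 13835, 6949.5, 17206 and 5444 in control replicates 1 to 4. The soluble TNF arrays lay within a narrow band apart from replicate 1, which entered the tmTNF range, and control arrays covered nearly the whole range. Atf4 mRNA was 1.59-fold higher in tmTNF than in soluble TNF (log2 0.67 ± 0.33, adjusted p = 0.276 in limma), and its difference from control was 0.38 ± 0.33 in tmTNF and -0.29 ± 0.33 in soluble TNF. A second Atf4 probe set gave 0.70 between the exposures, and the remaining one stayed under a signal of 100 on all arrays.

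Ddit3 encodes CHOP, a factor that promotes cell death under lasting ER stress. Its signals were 3319, 14828, 4966.5 and 3691 in tmTNF replicates 1 to 4, 839.7, 1119, 935 and 959 in soluble TNF replicates 1 to 4, and 12315, 1549.5, 12904.5 and 394 in control replicates 1 to 4. The 4 soluble TNF arrays were close together, and all tmTNF arrays were above them. Control arrays split widely, with replicates 1 and 3 near the brightest tmTNF array and replicate 4 below every soluble TNF array. The log2 difference was 2.50 ± 0.93 between tmTNF and soluble TNF (adjusted p = 0.174 in limma), 0.79 ± 0.93 between tmTNF and control, and -1.71 ± 0.93 between soluble TNF and control (adjusted p = 0.471). Without control replicate 4 the tmTNF minus control value turned to -0.20 and the soluble TNF minus control value to -2.69, and the last was -1.06 without control replicate 1 and -1.03 without control replicate 3.

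Atf3 encodes a stress-induced factor that can repress inflammatory genes. Its signals were 1133, 5169.5, 1387 and 1008 in tmTNF replicates 1 to 4, 763, 893, 519.9 and 617 in soluble TNF replicates 1 to 4, and 2981, 418, 2680 and 429 in control replicates 1 to 4. Here too tmTNF replicate 2 and control replicates 1 and 3 were bright, and the remaining tmTNF arrays lay just above the soluble TNF arrays. Atf3 was 2.44-fold higher in tmTNF than in soluble TNF (log2 1.29 ± 0.69, adjusted p = 0.32 in limma), and without tmTNF replicate 2 the log2 difference was 0.75.

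Trib3 encodes a pseudokinase that Atf4 and CHOP induce and that feeds back on Atf4. Its signals were 1991, 9005, 3674 and 1876 in tmTNF replicates 1 to 4, 357, 599, 419 and 368 in soluble TNF replicates 1 to 4, and 6915, 813, 7158 and 390.2 in control replicates 1 to 4. Soluble TNF arrays were uniformly low, and only control replicate 4 joined them. Trib3 showed the largest fold of the members between the exposures, with a log2 difference of 2.92 ± 0.85 (adjusted p = 0.106 in limma), and 3.33 in its other probe set. Against control it stood at 0.73 ± 0.85 in tmTNF and at -2.19 ± 0.85 in soluble TNF (unadjusted p = 0.0244, adjusted p = 0.333 in limma).

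Chac1 encodes an enzyme that breaks down glutathione and is induced through Atf4. Its signals were 4238, 6293, 3652 and 2270.2 in tmTNF replicates 1 to 4, 498, 1422, 1039 and 412 in soluble TNF replicates 1 to 4, and 3277, 1138, 2458.5 and 468.5 in control replicates 1 to 4. All tmTNF arrays were above all soluble TNF arrays, and 3 of the 4 were above every control array. Chac1 averaged 4113 ± 1671 in tmTNF, 843 ± 476 in soluble TNF and 1836 ± 1268 in control arrays (signal, SD, n = 4 each). The log2 difference between tmTNF and soluble TNF was 2.35 ± 0.58 (adjusted p = 0.0703 in limma). Chac1 was also the member with the widest separation of tmTNF from control, 2.65-fold or log2 1.41 ± 0.58, with an unadjusted p of 0.0328 and an adjusted p of 0.616. For soluble TNF minus control the value was -0.94 ± 0.58.

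Asns encodes asparagine synthetase, an Atf4 target that makes asparagine when amino acids are short. Its signals were 10128.5, 14519, 11335 and 6343 in tmTNF replicates 1 to 4, 4359, 6998, 5131 and 3461 in soluble TNF replicates 1 to 4, and 13355.5, 5096, 12924 and 2947 in control replicates 1 to 4. The tmTNF arrays were above the soluble TNF arrays except for tmTNF replicate 4, which lay below soluble TNF replicate 2. Asns was 2.1-fold higher in tmTNF than in soluble TNF (log2 1.07 ± 0.45, adjusted p = 0.22 in limma). Its log2 difference from control was 0.51 ± 0.45 in tmTNF and -0.56 ± 0.45 in soluble TNF.

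For tmTNF minus control, 0 of 10 members passed an adjusted p of 0.05, against 0.195% of all genes. At an unadjusted p under 0.05, 1 of 10 (Chac1) was higher, against 4.81% of all genes, and 0 of 10 did not overlap, against 3.17%. The median log2 difference of the members was 0.56, and that of all genes was 0.03. The counts are near the background, and the members' median rested on single arrays: it was 0.09 without control replicate 4, 0.24 without tmTNF replicate 2 and 0.26 without control replicate 2.

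For soluble TNF minus control, 0 of 10 passed the adjusted threshold, against 0.039% of all genes. Dnajb9, Herpud1 and Trib3, 3 of 10, were lower at an unadjusted p under 0.05, against 7.28% of all genes, and 0 of 10 did not overlap, against 8.11%. The count was 0 of 10 without control replicate 3, 1 of 10 without control replicate 2, soluble TNF replicate 1 or soluble TNF replicate 4, and 6 of 10 without control replicate 4. With arrays scaled to the same median it was 1 of 10, and without the 3 arrays of lowest endothelial sum it was 0 of 10. The median was -0.74 for the members and -0.05 for all genes, and it was -0.43 without control replicate 1 or 3 and -1.10 without control replicate 4.

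For tmTNF minus soluble TNF, 0 of 10 passed the adjusted threshold, against 1.22% of all genes. At an unadjusted p under 0.05, 6 of 10 were higher (Dnajb9, Herpud1, Ddit3, Trib3, Chac1 and Asns), against 12.4% of all genes. This count was 3 of 10 without tmTNF replicate 2, 4 of 10 with arrays scaled to the same median and 8 of 10 with array weights, and it ran from 3 to 9 over all settings. The groups did not overlap for 5 of 10, against 16.1% of all genes in either direction and 10.3% in the higher direction. The median was 1.18 for the members, 1.82 for the 6 Atf4 branch genes and 0.64 for the 4 ER genes, against 0.08 for all genes. The 3 comparisons share arrays in pairs, so their values are not independent of each other, and members that vary together are not separate observations.

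**Figure D2:**
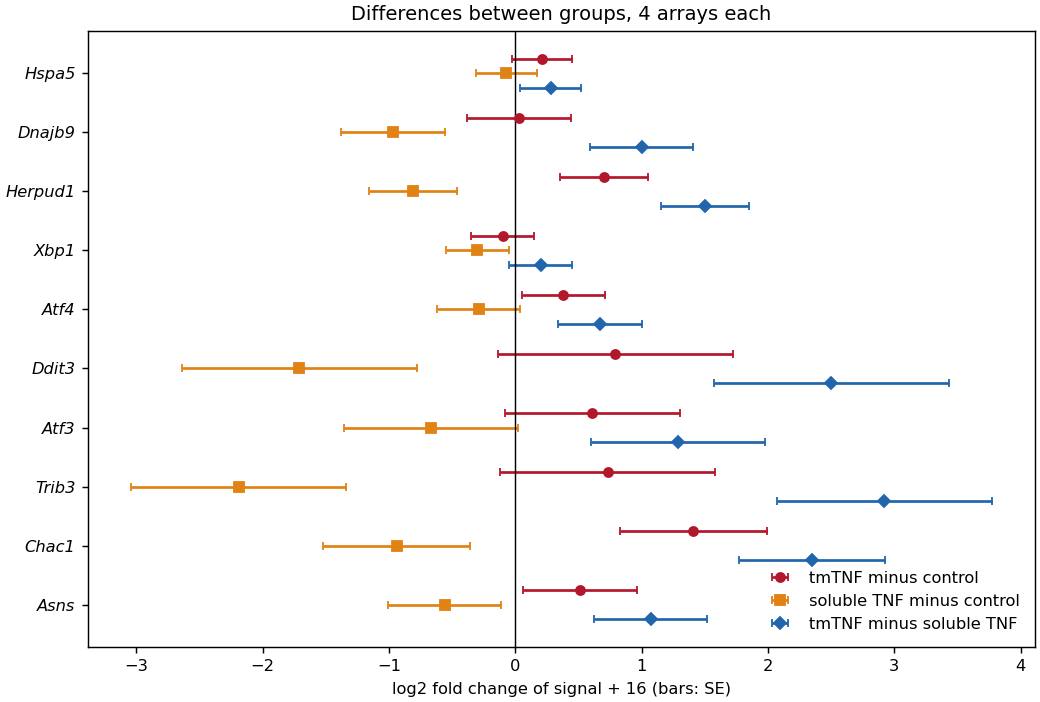
Log2 difference of each stress gene in the 3 comparisons, tmTNF minus control, soluble TNF minus control and tmTNF minus soluble TNF, with bars for 1 standard error. Values for tmTNF minus soluble TNF run from 0.20 in Xbp1 to 2.92 in Trib3, and 0 of 10 genes pass an adjusted p of 0.05 in any comparison.

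The number of members past the threshold between tmTNF and soluble TNF differed between settings. When only those 2 groups were fitted, 4 members passed in limma: Trib3 (adjusted p = 0.0188), Ddit3 (0.0223), Chac1 (0.0301) and Herpud1 (0.033). With array weights 6 passed, adding Asns and Dnajb9, and with the mean of all probe sets of a gene only Herpud1 passed (adjusted p = 0.0355). Without control replicate 1, Chac1 passed (adjusted p = 0.0498), and without control replicate 4, Herpud1, Chac1 and Trib3 passed. In that last setting the brightest probe set of Trib3 was the other one, with a log2 difference of 3.33, so the left-out array was not the only change for Trib3. Over all alternatives the log2 difference ran from 1.27 to 1.78 for Herpud1, from 2.07 to 2.76 for Chac1, from 2.02 to 2.74 for Ddit3 and from 2.45 to 3.33 for Trib3.

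The spread of these genes was widest in control arrays. The standard deviation of log2 signal was largest in control for 10 of 10 members, with a median over members of 0.55 in tmTNF, 0.33 in soluble TNF and 0.93 in control arrays. Over all genes the medians were 0.42, 0.29 and 0.5 in the same groups, so control was the widest group there too. The members varied together on the same arrays, so the count of 10 is not made of separate observations. Ddit3 had a standard deviation of 0.99 in tmTNF, 0.17 in soluble TNF and 2.43 in control, the last at the 98.3 percentile of all genes in control. Trib3, at 2.12 in control, stood at the 97.3 percentile and Atf3, at 1.56, at the 93.8 percentile. Hspa5 and Xbp1, by contrast, had 0.61 and 0.56 in control, at the 61.2 and 56.1 percentiles.

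The same arrays were bright for most members. The 3 highest signals of Hspa5, Atf4, Ddit3, Atf3, Trib3 and Asns, 6 of the 10 genes, were on tmTNF replicate 2, control replicate 1 and control replicate 3. The brightest array was tmTNF replicate 2 for 7 genes and control replicate 3 for the other 3, which were Hspa5, Dnajb9 and Xbp1. The summed endothelial signal was 28540 in tmTNF replicate 2, 93448 in control replicate 1 and 15798 in control replicate 3, so 2 of these 3 arrays were among those with the least endothelial signal. Those 2, tmTNF replicate 2 and control replicate 3, had the highest mesothelial and epithelial sums of all arrays, 14223 and 10717, and control replicate 1 had the highest leukocyte sum, 18602. The remaining array of low endothelial sum, tmTNF replicate 4 (29895), had the next highest mesothelial and epithelial sum, 7143. It was nevertheless the dimmest tmTNF array for all members except Hspa5 and Ddit3. Without the 3 arrays of lowest endothelial sum, which was tried after seeing the data, 4 of 10 members were higher in tmTNF than in soluble TNF at an unadjusted p under 0.05. The log2 difference was then 2.62 for Trib3, 2.38 for Chac1, 2.07 for Ddit3 and 1.45 for Herpud1, and 0 of 10 passed. The part of cell composition in the array pattern was not tested further. The heat map of deviations shows these arrays side by side.

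**Figure D3:**
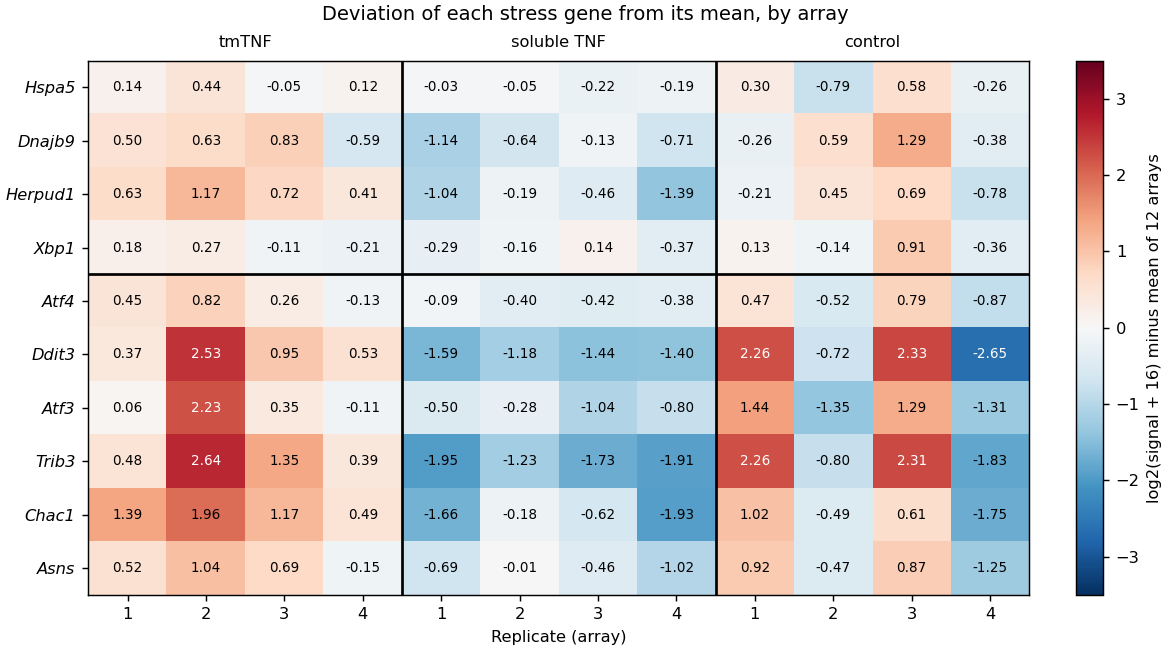
Deviation of each stress gene's log2 signal from its mean over the 12 arrays, with genes in rows and tmTNF, soluble TNF and control arrays in columns from left to right. The soluble TNF columns are low for most genes, and tmTNF replicate 2, control replicate 1 and control replicate 3 are high, with Hspa5 reaching 0.44, 0.30 and 0.58 there.

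Genes of the Atf4 branch varied together across the arrays. Of 6 gene pairs tested over the 12 arrays, the 4 within the Atf4 branch were correlated. Asns and Trib3 had a Pearson r of 0.935 (permutation test, adjusted p = 0.00012) and a Spearman rho of 0.93 (adjusted p = 0.00024). Atf4 and Ddit3 had an r of 0.923 (adjusted p = 0.00012 by permutation) and a rho of 0.818 (adjusted p = 0.00283). For Trib3 and Chac1 the r was 0.89 (adjusted p = 0.00042 by permutation) and the rho 0.902 (adjusted p = 0.0006). For Ddit3 and Chac1 they were 0.869 (adjusted p = 0.000705 by permutation) and 0.853 (adjusted p = 0.002). The unadjusted permutation p of these 4 pairs ran from 4e-05 to 0.00047 for r.

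The relations remained with group means taken out and without the most extreme arrays. The deviations of all 12 arrays were pooled, so control arrays, with the widest spread, weighed most. No group was examined alone. Taken as deviations from the group means, r was 0.942 for Asns and Trib3, 0.915 for Atf4 and Ddit3, 0.854 for Trib3 and Chac1, and 0.83 for Ddit3 and Chac1. Without the 2 arrays farthest from the median of the first gene, r was 0.931, 0.863, 0.892 and 0.866 in the same order, over 10 arrays. Only the rho of Atf4 and Ddit3 then missed the threshold, at 0.685 (adjusted p = 0.0526 by permutation). The points share 12 arrays, their scaling and their cell mixture.

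Hspa5 was tested against 2 of the 3 other ER genes, and neither correlation passed over the 12 arrays. Its r with Dnajb9 was 0.259 and its rho 0.273 (adjusted p = 0.423 and 0.389 by permutation), and with Herpud1 they were 0.379 and 0.469 (adjusted p = 0.272 and 0.155 by permutation). Without control replicates 2 and 3 the r of Hspa5 and Herpud1 was 0.694 (adjusted p = 0.0312 by permutation) and the rho 0.576 (adjusted p = 0.105), so that r rested on which arrays were included. As a description with no test, Hspa5 had an r of 0.66 with Xbp1, 0.83 with Atf4 and 0.87 with Atf3. Also without a test, r was 0.8 for Dnajb9 and Herpud1, 0.73 for Dnajb9 and Xbp1, and 0.59 for Herpud1 and Xbp1. Herpud1 had an r of 0.89 with Chac1, so high values were not limited to pairs within the Atf4 branch.

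**Figure D4:**
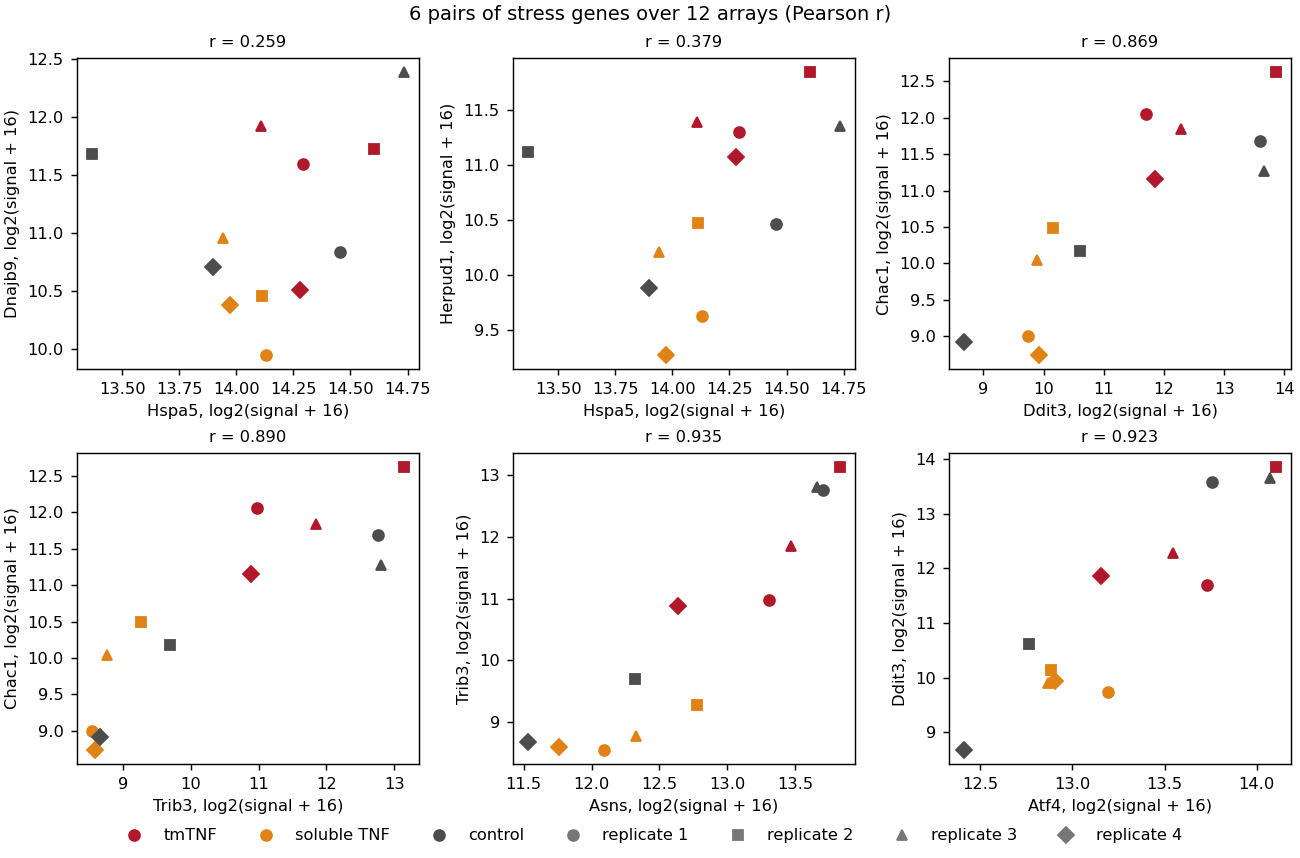
Log2 signals of the 6 tested gene pairs, with 1 point per array and the tmTNF, soluble TNF and control groups in different colours. Asns against Trib3 follows a line with r = 0.935 in which control arrays lie at both ends, while Hspa5 against Dnajb9 is scattered with r = 0.259.

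By likeness over the 12 arrays, the non-member genes closest to Hspa5 were Lars, a leucyl-tRNA synthetase (r = 0.985), the mitochondrial chaperone Hspa9 (r = 0.953) and Pgm3, an enzyme of amino sugar synthesis (r = 0.949). Lars had a median signal of 4684 in tmTNF, 3301 in soluble TNF and 4264 in control arrays, where it ranged from 1345 to 9172. Those closest to Chac1 were Erp44, an ER retention chaperone (r = 0.953), Tmem38b, an ER cation channel (r = 0.95), and Nupr1, a stress-induced chromatin protein (r = 0.948). Erp44 had signals of 2613 to 3289 in tmTNF, 1598 to 2036 in soluble TNF and 1887 to 2587 in control arrays, so tmTNF stood above both other groups. These genes were chosen for their likeness, so the values are a description.

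Among other genes of the pathway, those of the Atf4 amino acid programme had mostly higher values in tmTNF than in soluble TNF, with none past the adjusted threshold. Of 26 measured genes for amino acid synthesis, transport and tRNA charging, 0 passed the adjusted threshold, 14 were higher and 0 lower at an unadjusted p under 0.05, and 25 had a value above 0, with a median log2 difference of 0.84. Over all genes, 12.4% were higher at that level and 5741 of 10269 had a value above 0. Cth, which makes cysteine, had signals of 840.5 to 7042 in tmTNF, 165.8 to 544.8 in soluble TNF and 77.4 to 4855 in control arrays (log2 2.90 ± 1.24 for tmTNF minus soluble TNF, adjusted p = 0.223 in limma). Gpt2, a mitochondrial alanine aminotransferase, had 331.9 to 1708 in tmTNF, 79.2 to 171.8 in soluble TNF and 77.1 to 808.8 in control arrays (log2 2.34 ± 0.65, adjusted p = 0.096). The glycine transporter Slc6a9 was 3.07-fold higher in tmTNF (log2 1.62 ± 0.53, adjusted p = 0.137). These genes were named in part because their tmTNF and soluble TNF arrays did not overlap, and control arrays reached into both. Over the list, 17 of 26 genes were higher in tmTNF without overlap, against 10.3% of all genes.

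The count of 14 rested partly on 1 array and on the scaling. Without tmTNF replicate 2 it was 4 of 26 with a median of 0.71, and it was 9 without soluble TNF replicate 1, 3 or 4. With arrays scaled to the same median it was 4 of 26 with a median of 0.61, a scaling that moves the median of all genes to -0.15. Without the 3 arrays of lowest endothelial sum it was 7 with a median of 0.82. Against control, 25 of the 26 genes had a value above 0 in tmTNF (median 0.49) and 5 of 26 in soluble TNF (median -0.21). Over all genes, 5468 of 10269 were above 0 in tmTNF and 4707 of 10269 in soluble TNF. At an unadjusted p under 0.05, 2 of 26 were higher in tmTNF, against 4.81% of all genes. In soluble TNF 1 of 26 was lower at that level, against 7.28% of all genes, so both counts were near the background.

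Of 13 measured signalling and feedback targets of Atf4, 0 passed the adjusted threshold, and 7 were higher in tmTNF than in soluble TNF at an unadjusted p under 0.05, against 12.4% of all genes, with a median of 0.74. The count was 2 of 13 both without tmTNF replicate 2 and with arrays scaled to the same median. Nupr1 had signals of 8965 to 18572 in tmTNF, 1362 to 4108 in soluble TNF and 974.1 to 12508 in control arrays (log2 2.33 ± 0.65, adjusted p = 0.096 in limma). Ppp1r15a, which directs the phosphatase that removes the eIF2alpha mark, had a log2 difference of 2.21 ± 0.88 (adjusted p = 0.195), and its constitutive relative Ppp1r15b had 0.74 ± 0.26 (adjusted p = 0.15). Of the 13 values, 10 were above 0, against 5741 of 10269 over all genes. The exceptions were Bbc3 (-0.67), Tnfrsf10b (-0.58) and Vldlr (-0.11). Tnfrsf10b, a death receptor that CHOP can induce, had signals of 86.3 to 170.5 in tmTNF, 179.4 to 266.6 in soluble TNF and 42.7 to 145.4 in control arrays. Its log2 difference for soluble TNF minus control was 1.22 ± 0.37 (adjusted p = 0.268 in limma).

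Of 10 measured sensors and eIF2alpha kinases, 0 passed and 2 were higher in tmTNF than in soluble TNF at an unadjusted p under 0.05, a share near the 12.4% of all genes. The count was 1 of 10 without tmTNF replicate 2 or with arrays scaled to the same median. Eif2ak2, the kinase activated by double-stranded RNA and a known interferon target, had signals of 1206 to 2316 in tmTNF, 633.1 to 880.0 in soluble TNF and 537.9 to 1166 in control arrays. Its tmTNF arrays lay above both other groups, with log2 differences of 1.13 ± 0.28 against soluble TNF (adjusted p = 0.0703 in limma) and 0.89 ± 0.28 against control (adjusted p = 0.395). Atf6 had signals of 512.5 to 864.0 in soluble TNF and 874.2 to 2263 in control arrays, a log2 difference of -0.89 ± 0.38 (adjusted p = 0.37).

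The ER chaperones and folding enzymes had a median near that of all genes. Of 23 measured, 0 passed in any comparison, and between tmTNF and soluble TNF 2 were higher and 1 lower at an unadjusted p under 0.05, with a median of -0.03. Sil1, the nucleotide exchange factor of BiP, had a log2 difference of 1.13 ± 0.43 there (adjusted p = 0.183 in limma), and Ero1b, an ER oxidase, had -0.65 ± 0.24 for soluble TNF minus control (adjusted p = 0.324). In ER-associated degradation, 0 of 14 passed, 4 were higher in tmTNF than in soluble TNF at an unadjusted p under 0.05 and 13 had a value above 0, with a median of 0.39. That count of 4 was 1 without tmTNF replicate 2 and 0 with arrays scaled to the same median, and 12.4% of all genes were higher at that level. Edem1, which extracts misfolded glycoproteins, had 0.68 ± 0.22 (adjusted p = 0.127), Os9, a lectin of the same route, had 0.61 ± 0.23 (adjusted p = 0.183), and the ubiquitin-conjugating enzyme Ube2g2 had 0.98 ± 0.41 (adjusted p = 0.215).

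Other stress programmes and the response to TNF itself were set beside these. Of 10 cytosolic heat shock genes, 0 were higher or lower in tmTNF than in soluble TNF at an unadjusted p under 0.05, and the median was -0.29. Of 9 oxidative stress genes, 2 were higher at that level, against 12.4% of all genes, with a median of 0.49. Nfe2l2, the factor that drives them, had a log2 difference of 0.84 ± 0.28 (adjusted p = 0.138 in limma). Of 11 NF-kB response genes, 11 were higher in soluble TNF than in control at an unadjusted p under 0.05 with a median of 2.76, and 9 were higher in tmTNF than in control with a median of 1.95. Of all 10269 genes, 555 were higher in soluble TNF than in control and 494 in tmTNF than in control at that level. Past the adjusted threshold, Icam1, a leukocyte adhesion receptor, rose in tmTNF (288.1 to 2596 in tmTNF and 3.9 to 27.0 in control arrays, adjusted p = 0.00492 in limma). Nfkb2, an NF-kB subunit, rose in soluble TNF (1564.5 to 2527 in soluble TNF and 258.6 to 432.9 in control arrays, adjusted p = 0.0103), as did Edn1, which encodes endothelin-1 (618 to 4204.5 in soluble TNF and 3.9 to 49.1 in control arrays, adjusted p = 0.0202). Nfkb2 and Edn1 were lower in tmTNF than in soluble TNF (adjusted p = 0.0232 and 0.0349 in limma), opposite in direction to the values of the stress genes. Icam1 had a log2 difference of 2.1 there (72.8 to 362.0 in soluble TNF arrays), the same direction as the stress genes. It was the 1 gene of these 11 with a value above 0, and their median was -0.88.

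**Figure D5:**
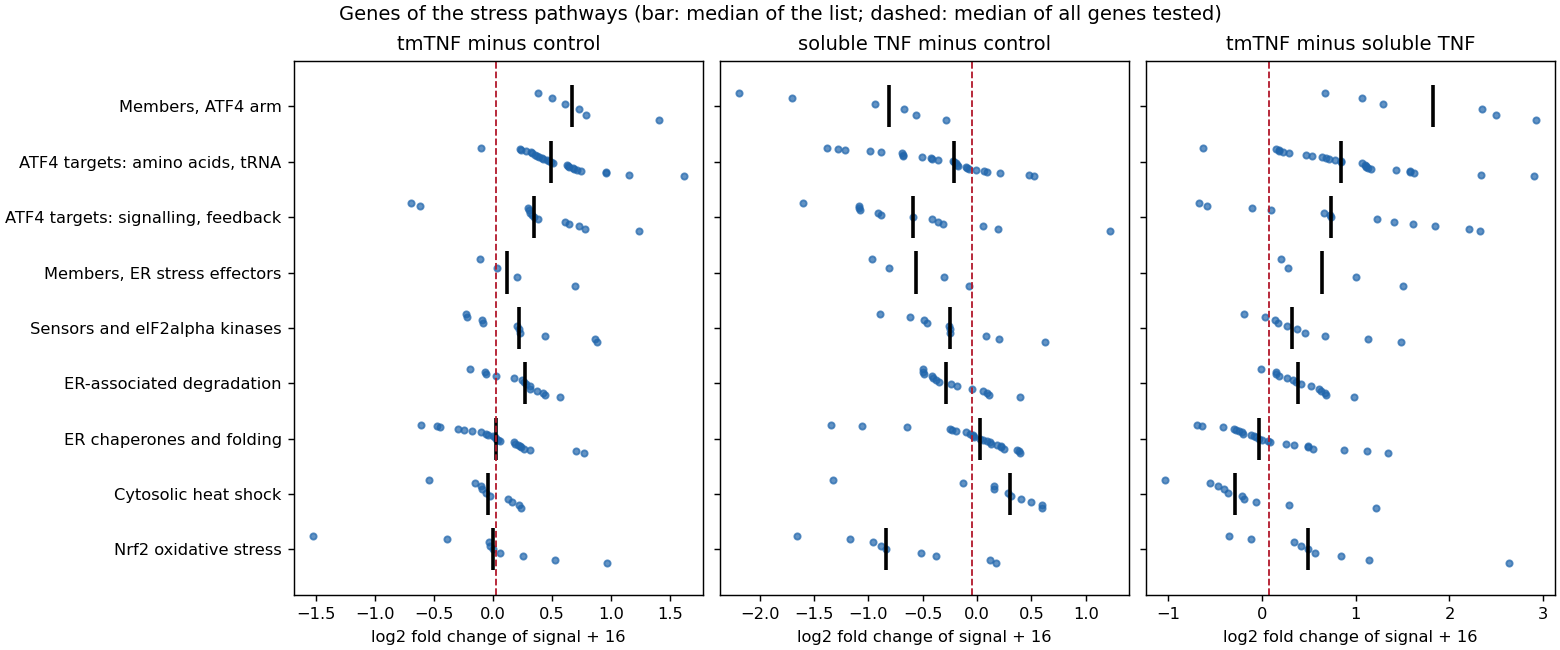
Log2 difference of each measured gene in the stress lists, with 1 panel for each of the 3 comparisons. Each point is 1 gene, a bar marks the list's median and a dashed line the median of all genes tested. For tmTNF minus soluble TNF, the Atf4 amino acid list has its median at 0.84 and 25 of 26 genes above 0. The ER chaperone list has its median at -0.03 there.

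Values of some markers of other cell types also differed between the exposures, with none past the adjusted threshold. The smooth muscle actin gene Acta2 had signals of 101.2 to 238.3 in tmTNF, 736.2 to 1668.5 in soluble TNF and 98.3 to 1043 in control arrays, a log2 difference of -2.81 ± 0.63 for tmTNF minus soluble TNF (adjusted p = 0.0543 in limma). Cd68, a macrophage marker, had signals of 63.3 to 6728 in tmTNF, 149.7 to 232.3 in soluble TNF and 255.2 to 18210.0 in control arrays, with a log2 difference of -3.09 ± 1.41 for soluble TNF minus control (adjusted p = 0.392 in limma). For tmTNF minus soluble TNF the log2 difference was 2.63 for Cd68 and 1.54 for the myeloid lysozyme gene Lyz2, the same direction as the stress genes. It was -0.13 for Csf1r, the other measured leukocyte marker. It was -2.13 for Col1a2, -2.04 for Col3a1 and -1.57 for Col1a1, collagen genes of fibroblasts, but 0.49 for the fibroblast marker Pdgfra. For tmTNF minus soluble TNF, 0 of 3 measured leukocyte and 0 of 4 measured fibroblast genes differed at an unadjusted p under 0.05 in limma. For soluble TNF minus control, Cd68 was lower at that level (unadjusted p = 0.0485 in limma), and the 2 groups did not overlap. The part of these cells in the stress gene values was not tested.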

How the data were processed

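The authors deposited linear signal intensities for every probe set, which the submitters' processing notes credit to MAS5. The MAS5 version is not given in the sources used here, and every deposited array had a 2% trimmed mean of 1000.0. Per the labels, each array took about 5 micrograms of RNA. Leaving out 64 control probe sets, arrays were brought to a 2% trimmed mean of 500, then transformed as log2(signal + 16), a scale that understates changes of dim genes. Probe sets with 1 gene symbol in the platform annotation were kept where at least 4 arrays reached 100, and each gene took its probe set of highest mean, leaving 10269 genes. Gene names and promoters are from RefSeq (GRCm38.p6). No genome was used.

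The 3 groups were fitted in one limma 3.58.1 model in R 4.3.3 (lmFit, trended eBayes). Tests were two-sided, p-values were adjusted by Benjamini-Hochberg over all 10269 genes, and 0.05 was the threshold. The model was tested on simulated data. Single values were compared by an exact permutation test, and correlations were tested by 100000 permutations with adjustment over 6 pairs (Python 3.11.15, scipy 1.17.1). A value after ± is a standard error of a log2 difference or a standard deviation (SD) of signals, as stated. With arrays, precision is limited by the 4 samples in each group. The other named genes were, per list and comparison, those past the adjusted threshold and up to 3 of largest difference among those with an unadjusted p under 0.05 and no overlap between groups. For Hspa5 and Chac1, the 3 non-member genes of highest r were added. Atf4 amino acid genes were tracked through the alternatives as a choice made after seeing the data. The members and all gene lists were chosen with earlier results of these data known, so the lists are described by counts and medians without a test. Alternatives were other scalings, pseudocounts of 1 and 64, a filter at 250 or none, merged or separate probe sets, no intensity trend, array weights, fits of only 2 groups, and leaving out each array.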

Additional observations from a re-analysis of the deposited data

Results flagged for a closer look

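Atf4 in soluble TNF was singled out by the distance of 1 array from the rest. Replicate 1 had a signal of 9343, against 7459 to 7662 in the other 3 arrays, and its gap to the nearest of them was 0.881 of the group's range on the log2 scale, above Dixon's critical value for 4 samples. Of the 30 groups formed by 10 genes and 3 conditions, 1 met this rule, and chance alone meets it in about 1 of 20 groups. Without that array the log2 difference of Atf4 between tmTNF and soluble TNF was 0.75, against 0.67 with it.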

How the results depend on the processing

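The number of stress genes past the threshold was 0 in every setting run for tmTNF minus control and soluble TNF minus control. For tmTNF minus soluble TNF it was 0 with all arrays, 1 with the mean of all probe sets, 4 with only the 2 groups compared, 6 with array weights, and 0 to 3 when 1 array was left out. The count of Atf4 amino acid genes higher in tmTNF at an unadjusted p under 0.05, 14 of 26, was 4 with arrays scaled to the same median, 7 without the 3 arrays of lowest endothelial sum (tried after seeing the data), and 4 to 17 when 1 array was left out. The cause was not tested. Of 780 values of members under an alternative, 742 kept their direction and side of the threshold, 20 newly passed it (5 of these by the exact permutation test, whose p is unadjusted), and 18 changed sign, all of them in differences that did not pass. For tmTNF minus control, Dnajb9 was -0.11 with the same median and -0.20 to 0.36 leaving out 1 array, Xbp1 was 0.0010 with array weights, 0.15 without the 3 arrays and -0.27 to 0.15 leaving out 1 array, Hspa5 was -0.0395 to 0.42 and Ddit3 -0.20 to 1.46 leaving out 1 array. For soluble TNF minus control, Hspa5 was 0.0127 with the same median, 0.0161 with the mean of probe sets, 0.0373 with array weights, 0.13 without the 3 arrays and -0.32 to 0.13 leaving out 1 array. Xbp1 for tmTNF minus soluble TNF was -0.0347 with the same median.

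Counts over all genes were less stable. For tmTNF minus soluble TNF, 125 genes passed (98 higher, 27 lower), against 239 with the same median (67 higher), 439 with only the 2 groups (310 higher), 1176 with array weights (713 higher), and 16 to 234 leaving out 1 array. For tmTNF minus control, 20 passed, against 1 without the 3 arrays, 38 with every probe set on its own and 2 to 52 leaving out 1 array. For soluble TNF minus control, 4 passed, against 2 with only the 2 groups, 26 without the 3 arrays and 0 to 23 leaving out 1 array. No paired analysis was possible because the labels carry no replicate numbers. Brightness did not limit the members, which all stood above 100 on all 12 arrays.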
